A study of Homo sapiens with 4 samples.

Results

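The genes of the aminoacyl-tRNA synthetases were examined in a list of PML binding sites from MDA-MB-231, a widely used human cell line of triple-negative breast cancer. The study made 2 PML ChIP libraries, from cross-linked chromatin precipitated with an antibody against PML, and 2 input libraries from the same line as their reference, and the labels name no treatment, genotype or time for either. The duplicates were merged by the authors, so the data are 1 peak list (hg38) with no value per library and no replicate error. Read depth is unknown from the list. Members were chosen by gene symbol: protein-coding genes whose symbol is a letter followed by ARS, with or without a closing 1 or 2, together with EPRS1, FARSA and FARSB. The table names 26 such genes, 15 for cytosolic and 11 for mitochondrial enzymes, among 13948 protein-coding genes, and gives 63 of its 68937 peaks to them. RefSeq lists 37 genes under the same rule, 20 cytosolic and 17 mitochondrial, and the counts below cover all 37. Current symbols are used; 13 of the 26 appear in the table under an older one, such as IARS for IARS1.

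Aminoacyl-tRNA synthetases attach each amino acid to its own tRNA, the step that sets the meaning of a codon. Most amino acids have a cytosolic enzyme and a separate mitochondrial enzyme made from another nuclear gene, whose symbol ends in 2. GARS1 and KARS1, counted here as cytosolic, are exceptions, since each makes both forms, and EPRS1 carries a glutamyl and a prolyl enzyme in 1 chain. Several cytosolic enzymes join with scaffold proteins in the multisynthetase complex, and many cytosolic synthetase genes are known targets of ATF4, the transcription factor induced when amino acids run short. PML builds the nuclear bodies that bear its name, and the title of the series links it to mTOR and to RONIN, a promoter-binding zinc-finger protein, in the control of ribosomal genes.

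Nearly all synthetase genes that the table names had a PML peak at the promoter, in both compartments, with scores close to the middle of all genes. A promoter peak here is a peak centred within 1000 bp of the TSS of the gene the table names as nearest. It was found for 25 of the 26 genes (96.2%, exact Clopper-Pearson 95% interval 80.4 to 99.9%), against 78.6% of all protein-coding genes in the table. All 15 cytosolic genes had one (interval 78.2 to 100%) and 10 of the 11 mitochondrial genes did (90.9%, interval 58.7 to 99.8%). A gene is named only if a peak lies nearest to it, so counting named genes raises these shares by construction. Over all RefSeq genes, named or not, the share was 67.6% of members, against 54.4% of protein-coding genes. The authors' peak score is a whole number whose scale is not stated; it serves here only to rank peaks within the list, whose median is 34. The highest promoter score of a gene had a median of 53 over the cytosolic genes and 68 over the mitochondrial genes, 58 over both, against 63 over the 10958 genes of any kind that had such a peak. Genes of 1 merged list are not replicates of a condition, so these differences carry no test, and the intervals cover counting error only.

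The table gives each peak to 1 gene and names a gene only if a peak lies nearest to it, so the promoters of all 37 members were also searched directly. A start peak is a peak overlapping the 1000 bp on either side of a gene's start, whichever gene the table names. Start peaks were found at 31 of 37 members (83.8%), 17 of 20 cytosolic (85.0%) and 14 of 17 mitochondrial (82.4%). Among the 30 members with a start given by RefSeq promoters, 24 had one (80.0%), against 65.1% of 15843 protein-coding genes with such an entry. Counted by the table's own gene names over all RefSeq genes, 25 of 37 members (67.6%) had a promoter peak, against 54.4%; these were 15 of 20 cytosolic (75.0%) and 10 of 17 mitochondrial members (58.8%). The members' share thus lay between 67.6% and 96.2% by the rule and denominator used. It was above that of all genes wherever both are given, while the 83.8% has no all-gene share beside it. No interval was computed for the 80.0% or the 67.6%, so counting error is not shown for those comparisons. Scores of 100 or more were held by 7 of the 31 start peaks, against 28.3% of all genes with a start peak. The median start peak score was 58 over cytosolic and 60 over mitochondrial members, against 68 over all genes. Both all-gene score values cover only genes with a RefSeq entry. Over members with such an entry the medians were 58 for cytosolic and 52 for mitochondrial ones.

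**Figure D1:**
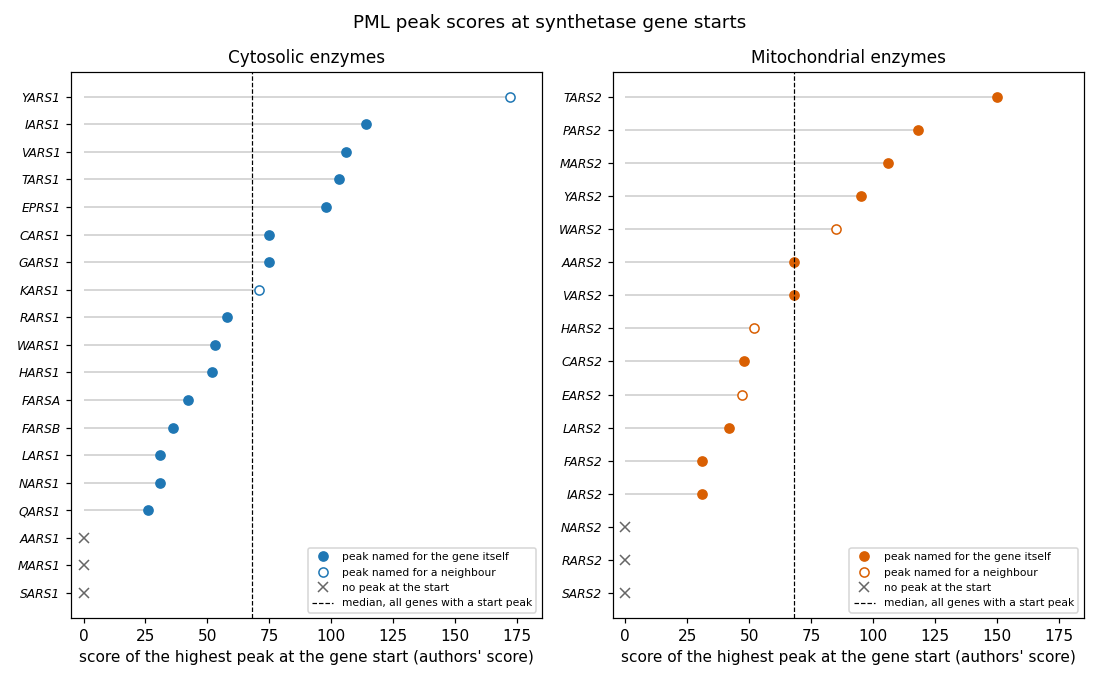
Score of the highest PML peak at the start of 35 synthetase genes, cytosolic enzymes on the left and mitochondrial enzymes on the right; open circles are peaks that the table names for another gene, crosses at 0 are genes with no peak at the start, and the dashed line is the median of all genes with a start peak (68). Cytosolic scores run from 26 to 172 and mitochondrial scores from 31 to 150, and each panel has 3 genes without a peak.

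Among the cytosolic enzymes, the highest score lay at the start of YARS1, the tyrosyl enzyme. This peak on chromosome 1 from 32816751 to 32818480 scored 172, the 1342nd place in the list, and at 1730 bp it was the widest start peak of all members. The table names it for S100PBP, whose start lies 84 bp upstream on the other strand, and YARS1 appears nowhere in its gene column. IARS1, the isoleucyl enzyme, had 114 (chromosome 9 from 92293569 to 92294017), VARS1, the valyl enzyme, 106, and TARS1, the threonyl enzyme, 103. EPRS1, the bifunctional glutamyl-prolyl enzyme, had a score of 98. These 5 cytosolic genes stood well above the median of all genes. CARS1 (cysteine) and GARS1 (glycine) had 75, and KARS1 (lysine) 71. Below the all-gene median lay RARS1 (arginine) with 58, WARS1 (tryptophan) with 53, HARS1 (histidine) with 52, FARSA with 42 and FARSB with 36, the last 2 encoding the subunits of the phenylalanyl enzyme. LARS1 (leucine) and NARS1 (asparagine) had 31, under the median of the whole peak list. QARS1, the glutaminyl enzyme, had the lowest cytosolic score, 26, with 9736 genes ranked higher by their promoter peak.

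Among the mitochondrial enzymes, TARS2, the threonyl enzyme, led with a score of 150, at rank 1928 among all peaks. Its peak lay on chromosome 1 from 150487077 to 150487923 and was annotated as promoter. PARS2, the prolyl enzyme, had 118, in its intron and over a MIRc element, and MARS2, the methionyl enzyme, had 106, over its only exon. YARS2 (tyrosine) had 95 and WARS2 (tryptophan) 85. AARS2 (alanine) and VARS2 (valine) had 68 each, equal to the median of all genes with a start peak. HARS2 shared a peak of 52 with HARS1, CARS2 had 48, EARS2 (glutamate) 47 and LARS2 42. FARS2 and IARS2 had 31. The mitochondrial scores thus covered nearly the same range as the cytosolic ones, and the 2 sets overlap almost entirely in the plot of scores by gene.

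Start peaks of 6 members carried the name of another gene in the table, 2 cytosolic (KARS1 and YARS1) and 4 mitochondrial (EARS2, HARS2 and WARS2 among them). In the main count WARS2 is the only named member without a promoter peak. A peak with a score of 85 nevertheless covers its start on chromosome 1 from 119139825 to 119140925, and the table names it for the antisense transcript WARS2-AS1, which starts within the gene. The EARS2 peak (47) was named for UBFD1, although the table's annotation of that peak cites an EARS2 transcript. KARS1 is a weaker case: its peak (71), named for TERF2IP, a telomere protein gene whose start lies 108 bp away, ran from position -907 to -183 bp relative to the KARS1 start, all of it upstream, and did not cover it. The table's annotation of this peak nevertheless cites a KARS1 transcript. The other 30 start peaks covered the start they were found at. A gene on the other strand starts within 1000 bp of 12 members, and 10 of these 12 had a start peak. A peak does not show the direction of transcription, so one that covers such a pair cannot be given to either partner.

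HARS1 and HARS2, the cytosolic and mitochondrial histidyl enzymes, are the clearest such pair, since both enzymes start from the same short stretch in opposite directions, 85 bp apart. A peak on chromosome 5 from 140690930 to 140691843, with a score of 52, covered both starts. The 84 bases between the starts are shown because 1 peak there counts for both compartments (RefSeq, GRCh38.p14, read along HARS2). Capitals mark ETS sites, CCGGAAGT or its reverse complement ACTTCCGG. One site lies at each edge, so each gene has the site directly before its own start in the direction of its own transcription.
HARS1 to HARS2 (chr5:140691371-140691454, plus strand): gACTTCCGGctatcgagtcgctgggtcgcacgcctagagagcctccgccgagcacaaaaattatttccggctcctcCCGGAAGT

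No start peak was found at 6 members. They were the cytosolic enzymes AARS1 (alanine), MARS1 (methionine) and SARS1 (serine), and the mitochondrial enzymes NARS2 (asparagine), RARS2 (arginine) and SARS2 (serine). The peak nearest to AARS1, with a score of 83, lay just past the other end of the gene, where the table annotates its transcript end. The nearest peak lay 12032 bp from the start of MARS1, 12854 bp from SARS2, 28237 bp from SARS1, 37514 bp from AARS1, 111424 bp from RARS2 and 156671 bp from NARS2. Of these 6 genes only SARS2 had a peak inside the gene, with a score of 21. The starts of RARS2 and SARS2 are also shared with a neighbour on the other strand: ORC3, an origin recognition complex gene, starts 148 bp upstream of RARS2, and MRPS12, a mitochondrial ribosomal protein gene, starts 181 bp upstream of SARS2. The RefSeq promoter windows of these 6 genes, 300 bases each, had a median GC content of 60.8% (range 53.7 to 66.7%). It was 62.0% for the 24 members with a start peak and an entry. Over all genes the medians were 53.7% for those without a start peak and 66.0% for those with one. Whether GC content bears on the missing peaks was not tested. A gene with no listed peak is one where the authors called none, at a depth and a threshold that are not known.

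Set beside each other by amino acid, neither compartment led throughout. Values are given for 16 pairs of a mitochondrial gene with the cytosolic gene for the same amino acid, with EPRS1 standing for both glutamate and proline and FARSA for phenylalanine. Both genes had a start peak in 11 pairs. Leaving out the shared HARS1 and HARS2 peak, the cytosolic gene scored higher in 6 and the mitochondrial gene in 4. Within these pairs, YARS1, EARS2, FARS2, WARS1, WARS2 and TARS1 also have a gene on the other strand starting within 1000 bp. Their peaks cannot be given to the synthetase alone. The cytosolic gene was ahead for isoleucine (114 at IARS1, 31 at IARS2), tyrosine (172 at YARS1, 95 at YARS2), glutamate (98 at EPRS1, 47 at EARS2), valine (106 at VARS1, 68 at VARS2) and cysteine (75 at CARS1, 48 at CARS2), and by a smaller margin for phenylalanine (42 at FARSA, 31 at FARS2). The mitochondrial gene was ahead for threonine (103 at TARS1, 150 at TARS2), tryptophan (53 at WARS1, 85 at WARS2), proline (98 at EPRS1, 118 at PARS2) and leucine (31 at LARS1, 42 at LARS2). Alanine and methionine had a peak at the mitochondrial gene only, asparagine and arginine at the cytosolic gene only, and serine at neither. With no replicate error, a difference between 2 scores of a pair cannot be set against any spread.

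**Figure D2:**
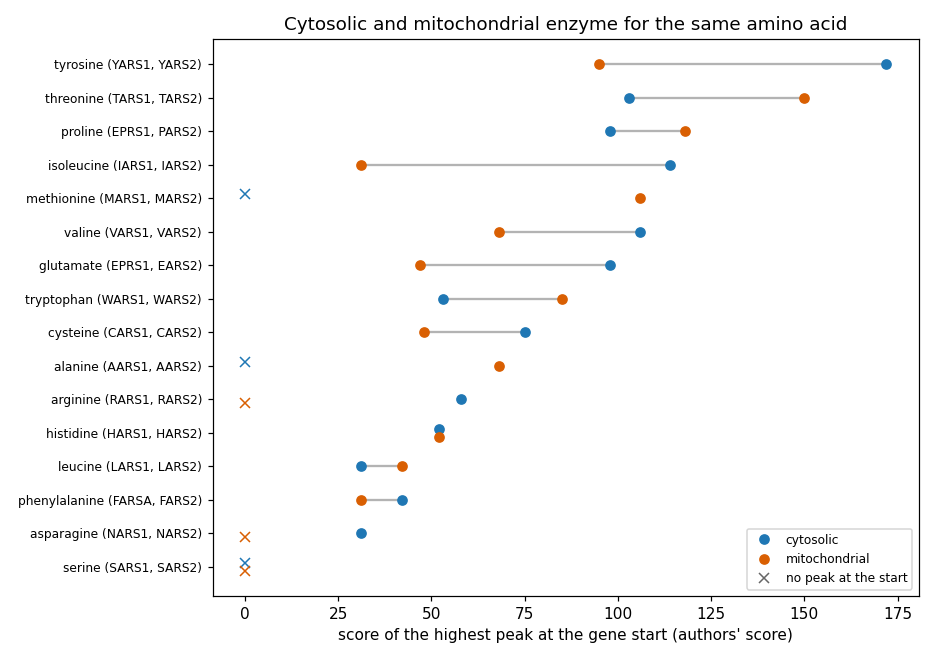
Start peak scores of the cytosolic and mitochondrial gene for each of 16 amino acids, joined by a line where both have a peak; crosses at 0 are genes with no peak at the start. The cytosolic gene is higher in 6 pairs and the mitochondrial gene in 4, histidine shares 1 peak, and serine has no peak at either gene. Peaks at YARS1, EARS2, FARS2, WARS1, WARS2 and TARS1 also lie near the start of a gene on the other strand.

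Grouping by the known structure of the enzymes gave similar scores. Synthetases fall into 2 classes that differ in the fold of the catalytic domain. Class I genes had a start peak at 16 of 18 with a median score of 63, and class II genes at 14 of 18 with a median of 52; EPRS1 holds a domain of each class and is not counted. Of the 8 genes whose enzymes sit in the multisynthetase complex, among them EPRS1, IARS1, LARS1 and QARS1, 7 had a start peak, with a median score of 58 and a range of 26 to 114. Of the 12 cytosolic genes outside the complex 10 had one, with a median of 64 and a range of 31 to 172. Members of the complex thus included both the second-highest and the lowest cytosolic scores. Over all protein-coding genes with a RefSeq start entry, 65.1% had a start peak. Their median score was 68, above the median of each of these groups. The groups also hold members without such an entry, some with a start taken from their own peak, so the bases differ.

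The peaks sat on the starts. All 25 promoter peaks named for members were centred within 288 bp of the TSS, the farthest being that of MARS2. Their median width was 542 bp, against 764.5 bp over 12106 promoter peaks of protein-coding genes. Over all start peaks the median was 725 bp for cytosolic and 721.5 bp for mitochondrial members, and widths ran from 315 bp at QARS1 to 1730 bp at YARS1. The centre lay downstream of the TSS for 17 of the 25 (68.0%), against 69.8% of all such promoter peaks. By compartment, the centre was downstream of the start in 10 of 17 cytosolic and 9 of 13 mitochondrial start peaks whose gene strand was known. The median centre lay 64.5 bp downstream.

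**Figure D3:**
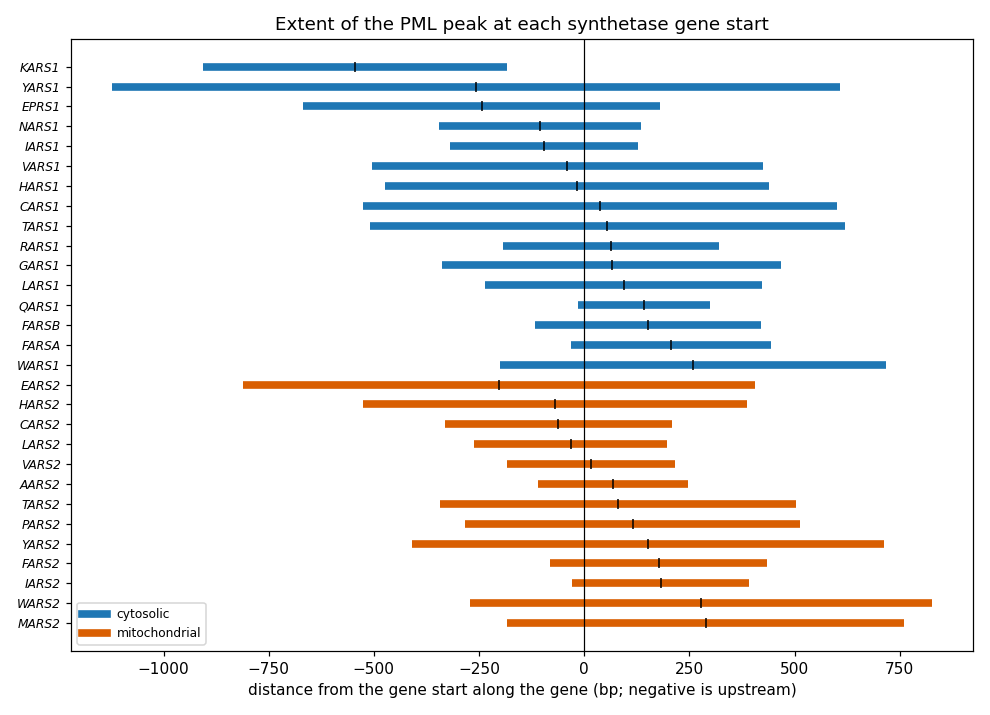
Extent of the start peak of 29 synthetase genes relative to the gene start, in bp along the direction of the gene, with cytosolic enzymes above and mitochondrial enzymes below; the black tick is the peak's centre. Every bar except that of KARS1 crosses the start, and 18 of the 29 centres lie downstream of it.

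The sequence directly upstream is shown for IARS1, TARS2 and MARS2, each with a score over 100, and for AARS1, which has no start peak, so that promoters with and without a peak can be read together. Each run is the 250 bases before the start, taken from RefSeq (GRCh38.p14) and read along the gene. Capitals mark 4 motifs on either strand: the C/EBP-ATF response element TGATGNAAN, to which ATF4 binds with a C/EBP partner, the CCAAT box, the E-box CACGTG and the ETS site named above.
IARS1 (chr9:92293698-92293947, minus strand): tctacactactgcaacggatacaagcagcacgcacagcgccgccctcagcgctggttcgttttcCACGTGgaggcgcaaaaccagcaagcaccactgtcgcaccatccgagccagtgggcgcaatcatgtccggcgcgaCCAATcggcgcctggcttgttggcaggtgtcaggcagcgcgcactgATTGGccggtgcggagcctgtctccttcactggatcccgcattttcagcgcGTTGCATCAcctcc
TARS2 (chr1:150487169-150487418, plus strand): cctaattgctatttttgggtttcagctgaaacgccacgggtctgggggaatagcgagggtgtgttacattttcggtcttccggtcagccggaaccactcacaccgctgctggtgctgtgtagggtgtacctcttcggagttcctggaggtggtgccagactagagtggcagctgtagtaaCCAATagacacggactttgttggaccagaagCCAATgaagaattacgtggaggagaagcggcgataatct
MARS2 (chr2:197705119-197705368, plus strand): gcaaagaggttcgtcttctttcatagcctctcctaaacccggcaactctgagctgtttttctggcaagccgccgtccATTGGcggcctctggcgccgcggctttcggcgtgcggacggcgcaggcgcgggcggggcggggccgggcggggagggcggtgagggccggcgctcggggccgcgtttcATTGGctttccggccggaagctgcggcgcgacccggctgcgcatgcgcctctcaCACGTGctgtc
AARS1 (chr16:70289507-70289756, minus strand): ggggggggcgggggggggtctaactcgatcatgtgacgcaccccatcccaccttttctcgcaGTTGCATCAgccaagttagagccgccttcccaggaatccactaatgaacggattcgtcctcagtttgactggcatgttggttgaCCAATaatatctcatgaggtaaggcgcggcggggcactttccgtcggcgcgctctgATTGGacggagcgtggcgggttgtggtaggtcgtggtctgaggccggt
IARS1 and AARS1 both hold the response element and 2 CCAAT boxes, on opposite strands, and IARS1 holds an E-box besides. TARS2 holds 2 CCAAT boxes in the same orientation, and MARS2 holds 2 on the other strand and an E-box. Among the promoters shown, no motif of these 4 was thus common to those with a peak and missing from AARS1. These chosen examples do not speak for the other members.

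The C/EBP-ATF response element was found at more cytosolic than mitochondrial genes. It was present in the promoter window, 250 bases before to 50 after the start, of 7 of 16 cytosolic genes with an entry (AARS1, CARS1, GARS1, IARS1, MARS1, NARS1 and TARS1). Of 14 mitochondrial genes with an entry only YARS2 held it. Over all 15843 genes, 3.60% held it, against 26.7% of the 30 members. Each match is shown with 10 bases on either side so that the letters can be compared between genes (RefSeq, GRCh38.p14; capitals mark the motif, on the strand of the gene).
AARS1 (chr16:70289676-70289704, minus strand): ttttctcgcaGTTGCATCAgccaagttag
CARS1 (chr11:3057408-3057436, minus strand): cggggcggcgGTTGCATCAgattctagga
GARS1 (chr7:30594834-30594862, plus strand): ttacgcggcgATTTCATCAtgctccgagc
IARS1 (chr9:92293693-92293721, minus strand): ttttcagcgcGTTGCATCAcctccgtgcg
MARS1 (chr12:57488053-57488081, plus strand): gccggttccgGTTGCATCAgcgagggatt
NARS1 (chr18:57621804-57621832, minus strand): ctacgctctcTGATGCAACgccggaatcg
TARS1 (chr5:33440956-33440984, plus strand): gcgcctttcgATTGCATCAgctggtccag
YARS2 (chr12:32756076-32756104, minus strand): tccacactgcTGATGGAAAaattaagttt
In AARS1, CARS1, IARS1 and MARS1 the match read GTTGCATCA, and in NARS1 it was the exact reverse complement, TGATGCAAC. In TARS1 it read ATTGCATCA, and in GARS1 ATTTCATCA. The YARS2 match, TGATGGAAA, began at position -197. In CARS1, GARS1, IARS1, MARS1, NARS1 and TARS1 the match began between positions -34 and 14 relative to a start, while in AARS1 it began at position -188. PML peaks covered the match in 6 of the 8 genes: CARS1, GARS1, IARS1, NARS1, TARS1 and YARS2, with scores of 75, 75, 114, 31, 103 and 95. The other two, AARS1 and MARS1, have no start peak. Over all genes, 45.8% of the 570 holding the motif had a start peak, against 65.8% of those without it. A match is a description of the letters, and whether ATF4 binds there in these cells was not measured.

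**Figure D4:**
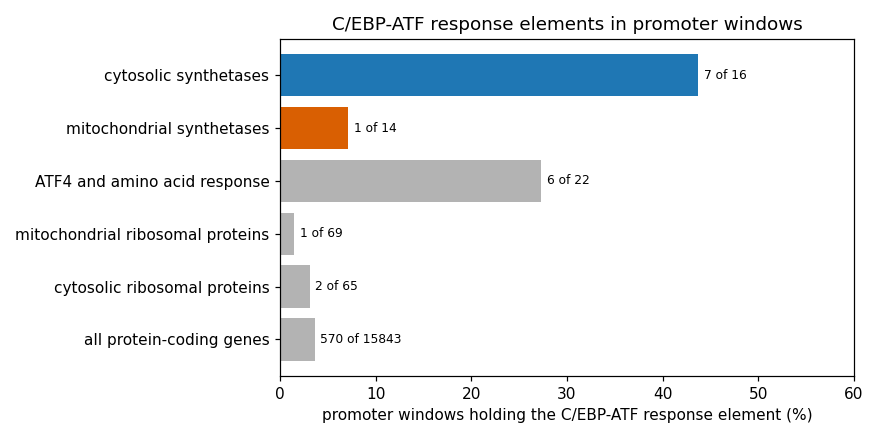
Share of promoter windows (300 bases) that hold the C/EBP-ATF response element TGATGNAAN on either strand, for each gene set, with the counts beside the bars. The cytosolic synthetases reach 7 of 16 and the mitochondrial synthetases 1 of 14, against 570 of 15843 protein-coding genes.

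Other motifs were spread over both compartments. The ETS site was found at 5 of 16 cytosolic and 3 of 14 mitochondrial genes, 26.7% of members against 6.97% of all genes, and all 8 of these genes (CARS1, EARS2, HARS1, HARS2, NARS1, PARS2, TARS1 and WARS1) had a start peak. Over all genes 84.7% of those with the ETS site had one. HARS1 and HARS2 hold the same sites under their shared peak, so that stretch is counted in both compartments. CCAAT boxes were found at 7 of 16 cytosolic and 9 of 14 mitochondrial genes (53.3% of members, 42.1% of all genes). GC boxes (GGGCGG) were found at 12 and 11 (76.7% of members, 64.3% of all genes), and the E-box CACGTG at 1 and 3 (13.3% of members, 10.9% of all genes). NRF1, the nuclear respiratory factor, has a site (GCGC, any base, then TGCGC) that was found at 3 cytosolic and 3 mitochondrial genes (20.0% of members, 9.67% of all genes). The element bound by RONIN and ZNF143 (ACTACA, any pair of bases, then TCCCA) was found at CARS1 only, 3.33% of members against 2.37% of all genes, and its shorter form (CTACAA, any base, then TCCC) at none, against 1.84%. The YY1 site was found at KARS1, NARS1 and YARS2 (10.0% of members, 1.58% of all genes). All searches covered both strands, each gene was counted once, and the forms of the RONIN and ZNF143 element overlap in part. No match says only that these letters are not in this window.

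Peaks away from promoters belonged to few of the genes. Of the 63 peaks named for members, 38 were centred over 1000 bp from the TSS (60.3%), against 75.6% of peaks named for any protein-coding gene. They fell to 7 of the 26 named members (26.9%), against 65.9% of all protein-coding genes in the table. TARS1 had 11 of them, PARS2 9, RARS1 6, WARS2 5, TARS2 3, and MARS2 and CARS1 2 each. The other 19 named members had only their promoter peak. The median score of the 38 peaks, 31, equalled that of all 55167 peaks at such distances. The highest were a peak 16978 bp upstream of PARS2 (86), in an exon of the neighbouring TTC22, a peak 38533 bp upstream of WARS2 (80) and one 61722 bp downstream of the TARS1 start (73). Those of RARS1 lay upstream, 5 of the 6 in introns of WWC1, and 5 of the 11 of TARS1 lay in ADAMTS12. The table names the nearest gene, and which gene such a peak acts on was not measured.

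Repeats were named for 18 of the 38 distal peaks (47.4%), against 30.8% of all distal peaks. LTR12C, the long terminal repeat of the HERV9 family of endogenous retroviruses, was named for 4 of them (10.5%), against 1.99% for the LTR12 family over all distal peaks. These 4 lay at 2 loci. A pair lay 73867 and 74919 bp downstream of the TARS1 start, with scores of 31 and 59. Another pair lay in WARS2-AS1, 31077 and 38533 bp upstream of WARS2, with scores of 58 and 80, and a HERV9 internal segment there had 29. The 2 peaks of each pair are close neighbours, so they do not count as independent sites.

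**Figure D5:**
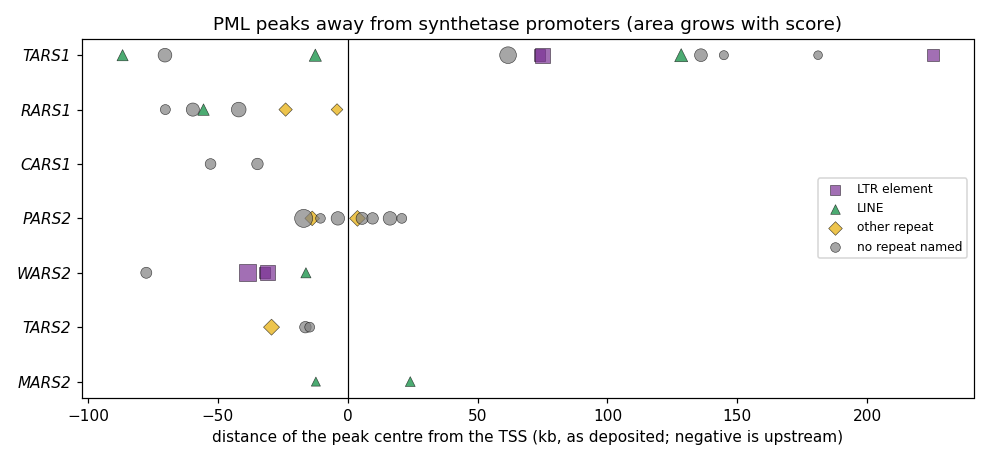
The 38 peaks named for synthetase genes that are centred over 1000 bp from the TSS, by distance in kb (negative is upstream), with cytosolic genes above and mitochondrial genes below; symbols give the kind of repeat named by the table and their area grows with the score. LTR peaks are seen at TARS1 and WARS2, and the peaks of PARS2 lie on both sides of the gene, from 16978 bp upstream to 20806 bp downstream.

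Inside the synthetase gene records, apart from the start peaks above, 21 peaks were found in 11 genes, with scores of 17 to 51 and a median of 31. The table names 19 of the 21 for other genes; the remaining 2, in PARS2, are also among its distal peaks above. Among them were 3 SVA retroposons, young primate mobile elements: SVA_B in an intron of YARS1 (score 51, the highest of the 21), and SVA_D in introns of IARS1 (47) and WARS1 (21), all in cytosolic genes. No such counts were made over all genes, so neither the 21 peaks nor the SVA elements are set against a background. VARS1 had peaks over exon 9 (48) and exon 17 (31), and TARS2 had one over exon 11 (39). The CARS2 gene record held 2 peaks at promoters of ING1 (36 and 31), and the first of them also covers the outermost 5′ end of that record, upstream of the CARS2 starts used here.

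Most of the named genes that act with the synthetases also had promoter peaks, against the same background of 78.6% of all genes in the table. Of the scaffold proteins of the multisynthetase complex, AIMP1 had a promoter peak scoring 106 and AIMP2 a start peak with 244 named for another gene, while EEF1E1 had none. All 3 named genes of mitochondrial tRNA charging had one: MTFMT, which formylates the initiator tRNA, had 48, and GATB (36) and QRSL1 (16) encode subunits of the amidotransferase that makes glutaminyl-tRNA in mitochondria. Its remaining subunit gene GATC had a start peak of 106 under another gene's name. SEPSECS (98) and PSTK (55), of the selenocysteine route, both had a promoter peak, as did all 4 synthetase-like or editing genes, led by TARS3, a further threonyl enzyme, with 239, then DTD1 with 75 and DTD2 with 53. Of 17 named tRNA maturation genes 16 had one, with a median of 62: TSEN15 (236) and TSEN54 (211) encode subunits of the tRNA splicing endonuclease and PRORP (124) the nuclease of mitochondrial RNase P, and POP4 had none. Among ATF4 and amino acid response genes, 23 of 25 had a promoter peak (92.0%) with a median score of 101, led by SLC3A2, an amino acid transporter subunit (263), TRIB3, a stress-induced pseudokinase (233), and DDIT4, an inhibitor of mTOR signalling (217). STC2 and PSPH had none by the table's naming, although a start peak of 158 lay at STC2. This median was above the 58 of the synthetases and the 63 of all genes, and 6 of the 22 genes of that list with an entry held the response element (ASNS, ATF3, CEBPG, CHAC1, SLC3A2 and SLC7A1). None of the 16 tRNA maturation genes or 3 mitochondrial charging genes with an entry held it.

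Ribosomal protein genes, the other protein synthesis genes nearest in kind, showed similar shares and somewhat higher scores. A promoter peak was found at 96.2% of the synthetase genes named in the table (25 of 26), 87.0% of mitochondrial ribosomal protein genes (47 of 54) and 92.7% of cytosolic ones (51 of 55, chosen by symbol and including a few paralogs). These shares are over genes that the table names, and a gene needs a peak to be named. By start peak, over genes with a RefSeq start entry, the shares were 80.0%, 76.8% and 80.0%. Median promoter scores were 58 for the synthetases, 82 for the mitochondrial ribosomal proteins and 68 for the cytosolic ones. The C/EBP-ATF response element was held by 8 of 30 synthetase promoters, 1 of 69 mitochondrial and 2 of 65 cytosolic ribosomal protein promoters. No difference between these sets was tested.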

How the data were processed

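The deposited file is 1 annotated peak table, which the authors made from merged duplicates with input as the reference (per the labels' design text). HOMER 4.11.1, MACS2 2.1.1.20160309, Picard 2.0.1, BWA 0.7.12, Trimmomatic 0.36 and hg38 stand in the submitters' processing notes, without roles or settings; the peak threshold was not found in these sources. Per the file headers the deposited values are a peak score of unstated scale and positions in bp. Members and lists were chosen with earlier results of these data known. Genes were matched to RefSeq (GRCh38.p14) by gene ID. The TSS implied by a peak's deposited distance lay within 2 bp of a RefSeq start for 17 of 20 peaks of members and 7975 of 9922 of all genes (80.4%). Starts of AARS2, LARS1, VARS1, VARS2 and YARS1 came from peak distances or intron numbers (YARS1). Some members enter the counts but are not reported singly here. The overlap search was checked on simulated data. Python 3.11.15, pandas 2.3.3 and scipy 1.17.1 were used. No p-values were computed, since genes of 1 merged list are not replicates. Any member could be named; of each related list, the 3 highest promoter scores and, where at most 5 genes lacked a peak, those. Other genes of these lists, the repeats and the peaks inside genes were chosen after their values were seen.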

Additional observations from a re-analysis of the deposited data

How the results depend on the processing

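The shares and median scores of all, cytosolic and mitochondrial members were recomputed under other settings, and 27 of 35 values stayed within the interval of the share, or within 1.5 times the median. Counting only peaks scored above the median of 34, promoter peaks were found at 73.1% of members and 73.3% of cytosolic members, against 64.1% of all genes. With the 5000 highest-scoring peaks the shares were 26.9% of members, 26.7% of cytosolic and 27.3% of mitochondrial members, against 23.4% of all genes. Over all RefSeq members the shares were 67.6% in all, 75.0% for cytosolic and 58.8% for mitochondrial members, against 54.4% of all genes. With a peak at a RefSeq start, whichever gene is named, 80.0% of members had one. Fewer peaks, or genes that the table does not name in the denominator, lower these shares by construction. Windows of 500 and 5000 bp left the shares of members as they were, while that of all genes moved to 70.6% and 87.0%. Without GARS1 (KARS1 is not named in the table) the cytosolic share was still 100%. The order of the medians depended on the setting: 53 for cytosolic and 68 for mitochondrial members in the main count, but 58 and 52 by peaks at RefSeq starts. The search at the starts of all 37 members was chosen after seeing the data. No paired analysis was possible because the authors merged the duplicates, which also means that neither replicate could be left out. Unknown depth and threshold limit every statement on genes without a peak.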
